A study of Mus musculus with 6 samples.

Results

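Broad peaks of open chromatin were examined in ATAC-seq data from 3 mouse cell lines, each assayed in 2 replicates. Beta-TC3, here Pax6-HIGH, is an insulinoma cell line. MV+, here Pax6-ON, came from cultured lens epithelia of a wild-type C57BL6 mouse, and RAG, here Pax6-OFF, from a renal adenocarcinoma of a BALB/c mouse. No cells were treated, and all were grown in the same medium. Each reaction used 50000 nuclei, released with 0.2% NP40 for Pax6-ON and 0.1% NP40 for the other lines, so that this step and the cell line cannot be told apart. Below, where 3 values follow each other without a cell line, they stand for Pax6-HIGH, Pax6-ON and Pax6-OFF, in this order. Peaks were called from 100254099, 130955836 and 102223606 fragments.

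A broad peak was any peak on chromosomes 1 to 19 of mm9 with a length of 2000 bp or more, so that the members were chosen by a measured value, the peak length. There were 138 broad peaks among the 27172 peaks of Pax6-HIGH, 50 among the 9418 of Pax6-ON and 110 among the 13394 of Pax6-OFF, which is 298 of 49984 in all. The authors joined the replicates in a single MACS2 call for each line, with its option for broad regions off. A broad peak is therefore an ordinary peak that ran on for a long distance. No value has a replicate error, no test between lines was possible, and the 95% Wilson intervals given for shares cover counting error over peaks only.

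In ATAC-seq the Tn5 transposase inserts adapters into accessible DNA, and fragments pile up at promoters, enhancers and other open sites. Long stretches of open chromatin are known at the promoters of highly transcribed genes and of genes that set cell identity. A peak can also run on where the reference genome holds many copies of 1 sequence, because a short read from any copy can be placed on another, and because a genome can carry more copies than the reference does. The reference copy that a fragment was placed on and the copy that was open cannot then be told apart. Whether reads that match several places were kept in these files is not given in the sources used here.

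Most broad peaks consisted of repeated sequence. To measure this, each peak was divided into overlapping words of 25 bases, and a peak was called multi-copy when at least 50% of its words occurred more than once in mm9, counting both strands. Of the broad peaks, 133 of 138 in Pax6-HIGH (96.4%, interval 91.8 to 98.4%), 50 of 50 in Pax6-ON (100%, interval 92.9 to 100%) and 107 of 110 in Pax6-OFF (97.3%, interval 92.3 to 99.1%) were multi-copy. Among all peaks the shares were 11.8%, 16.1% and 20.7%. Peaks that were not multi-copy are called single-copy below, a term that refers to the reference only.

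The repeats were mostly of a tandem kind, in which copies follow each other head to tail. The sequences below, from mm9 on the plus strand, show the main kinds. The rule for printing sequences left out repeats, so the arrays to show were chosen after their values were seen, as those with the largest length summed over the lines in 3 repeat families (among sites broad in every line) and among short units of at least 80% identity (1 site broad in every line and 1 with a peak in Pax6-HIGH alone). For each array the first unit is the window nearest the Pax6-HIGH summit whose next unit matched it at 90% or more of its bases. Capitals mark the positions at which a unit differs from the first. Units were compared position by position without gaps, so that 1 gained or lost base can mark several positions. The first array, 10027 bp at chr3:6297472-6307498, was broad in every line and had a unit of 208 bp that holds 12 CpG dinucleotides. Its neighbouring units, chr3:6305809-6306016 and chr3:6306017-6306224, differed at 6 bases.
208 bp array, unit 1: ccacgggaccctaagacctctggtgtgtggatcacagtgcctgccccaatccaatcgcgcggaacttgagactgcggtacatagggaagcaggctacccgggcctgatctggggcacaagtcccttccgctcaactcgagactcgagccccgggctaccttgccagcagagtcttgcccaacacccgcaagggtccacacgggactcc
208 bp array, unit 2: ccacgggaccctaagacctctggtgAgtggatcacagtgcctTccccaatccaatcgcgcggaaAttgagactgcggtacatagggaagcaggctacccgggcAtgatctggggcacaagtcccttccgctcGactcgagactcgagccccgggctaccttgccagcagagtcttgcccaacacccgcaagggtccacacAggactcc
A second kind had a unit of 212 bp. Units from the array at chr8:53389044-53393918, at chr8:53390789-53391000 and chr8:53391001-53391212, differed at 21 positions. Part of these lay near the start, where unit 2 is shifted by 1 base.
212 bp array, unit 1: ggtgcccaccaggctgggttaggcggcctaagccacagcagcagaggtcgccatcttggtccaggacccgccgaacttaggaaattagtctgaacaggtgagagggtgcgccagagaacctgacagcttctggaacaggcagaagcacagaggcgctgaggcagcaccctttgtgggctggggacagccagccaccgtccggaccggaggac
212 bp array, unit 2: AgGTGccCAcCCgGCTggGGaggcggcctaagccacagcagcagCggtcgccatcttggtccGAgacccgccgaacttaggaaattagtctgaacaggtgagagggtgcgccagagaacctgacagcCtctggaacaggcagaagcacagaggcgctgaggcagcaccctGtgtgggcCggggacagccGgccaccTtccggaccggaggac
At the 3 sites at the start of chromosome 9 the commonest distance between copies was 234 bp. It held 17.1% of the words at the longest site, which is below the 20% set for a dominant unit below, and 22.6% and 23.7% at the others. The units shown come from the longest site and are rich in A and T. The units at chr9:3024430-3024663 and chr9:3024664-3024897 differed at 23 positions, part of them near the end, where unit 2 is shifted by 1 base.
234 bp array, unit 1: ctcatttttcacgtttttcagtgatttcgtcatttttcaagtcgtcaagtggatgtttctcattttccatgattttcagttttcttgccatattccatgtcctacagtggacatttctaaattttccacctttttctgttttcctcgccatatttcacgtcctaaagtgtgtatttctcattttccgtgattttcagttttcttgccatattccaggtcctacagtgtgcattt
234 bp array, unit 2: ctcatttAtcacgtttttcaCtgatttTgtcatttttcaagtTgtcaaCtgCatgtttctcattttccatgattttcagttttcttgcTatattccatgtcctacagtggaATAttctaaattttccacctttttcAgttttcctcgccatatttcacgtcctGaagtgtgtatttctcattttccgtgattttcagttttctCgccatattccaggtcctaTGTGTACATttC
Short units made up the largest class of sites. The unit of 54 bp below, at chr2:52556012-52556065, was followed by 3 identical units inside an array that was broad in every line. The unit of 50 bp, at chr6:147500171-147500220 in an intron of *Ccdc91*, was also followed by 3 identical units and lay in a peak found in Pax6-HIGH cells but in neither other line.
54 bp array, unit 1: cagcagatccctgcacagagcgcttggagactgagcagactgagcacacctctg
50 bp array, unit 1: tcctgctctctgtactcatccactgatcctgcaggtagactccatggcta
Single-copy broad peaks were rare, and summit windows, reaching 100 bp to either side of the summit, from 3 of them at promoters are given for comparison, with CpG dinucleotides in capitals. They are chr6:8898533-8898733 (*Nxph1*, 20 CpGs), chr12:39505282-39505482 (*Etv1*, 10 CpGs) and chr1:173432640-173432840 (*Refbp2*, 4 CpGs).
Nxph1 summit: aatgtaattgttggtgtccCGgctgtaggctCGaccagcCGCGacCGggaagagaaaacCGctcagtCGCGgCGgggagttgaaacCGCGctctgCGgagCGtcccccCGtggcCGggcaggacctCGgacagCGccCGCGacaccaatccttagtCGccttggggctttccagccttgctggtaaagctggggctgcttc
Etv1 summit: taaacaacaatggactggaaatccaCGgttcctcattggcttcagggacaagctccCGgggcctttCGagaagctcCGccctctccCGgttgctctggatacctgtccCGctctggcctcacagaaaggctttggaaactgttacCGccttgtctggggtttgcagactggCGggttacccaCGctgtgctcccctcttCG
Refbp2 summit: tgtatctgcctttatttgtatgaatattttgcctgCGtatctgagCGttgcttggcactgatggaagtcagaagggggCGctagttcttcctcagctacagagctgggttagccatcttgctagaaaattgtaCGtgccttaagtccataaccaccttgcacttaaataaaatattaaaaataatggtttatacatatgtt

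Stricter measures of repetition also separated broad from shorter peaks. When words had to occur at least 10 times in mm9, 84.8%, 88.0% and 88.2% of the broad peaks were multi-copy, against 7.14%, 6.87% and 11.3% of the shorter peaks. When words had to occur outside the peak itself, 91.3%, 94.0% and 92.7% of broad peaks were multi-copy, against 11.1%, 15.4% and 19.8% of shorter peaks. Repetition within the peak was measured as words of 15 bases that recurred within 500 bp of the summit. The median share of such words was 88.2%, 88.2% and 86.9% in broad peaks and 0 in shorter peaks of every line. At least 20% of the words recurred in 76.8%, 84.0% and 76.4% of broad peaks and in 5.80%, 4.76% and 8.86% of shorter peaks.

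The share of multi-copy peaks rose steeply with length above 1000 bp, and the length at which most peaks were multi-copy differed between lines. In Pax6-HIGH cells, 14.2% of the 2345 peaks from 1000 bp to under 1500 bp were multi-copy, 41.9% of the 301 peaks from 1500 bp to under 2000 bp, 94.2% of the 86 peaks from 2000 bp to under 3000 bp and 100% of the 52 longer peaks. In Pax6-ON cells the same classes reached 39.8%, 91.7%, 100% and 100%. In Pax6-OFF cells they reached 33.9%, 82.1%, 96.9% and 97.8%. The share of peaks at promoters rose with length at first and then fell. A peak was placed at a promoter when its summit lay within 1000 bp of the start site of a protein-coding transcript. In Pax6-HIGH cells this share rose from 17.7% under 500 bp to 60.6% from 1000 bp to under 1500 bp and was 6.98% from 2000 bp to under 3000 bp. Among single-copy peaks the promoter share was 69.8% and 70.9% in the classes that start at 1000 and 1500 bp in Pax6-HIGH cells, 88.7% and 76.2% (16 of 21) in Pax6-OFF cells, and 76.6% and 1 of 4 in Pax6-ON cells. From 2000 bp to under 3000 bp it was 2 of 5 in Pax6-HIGH and 1 of 2 in Pax6-OFF cells, too few to compare.

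**Figure D1:**
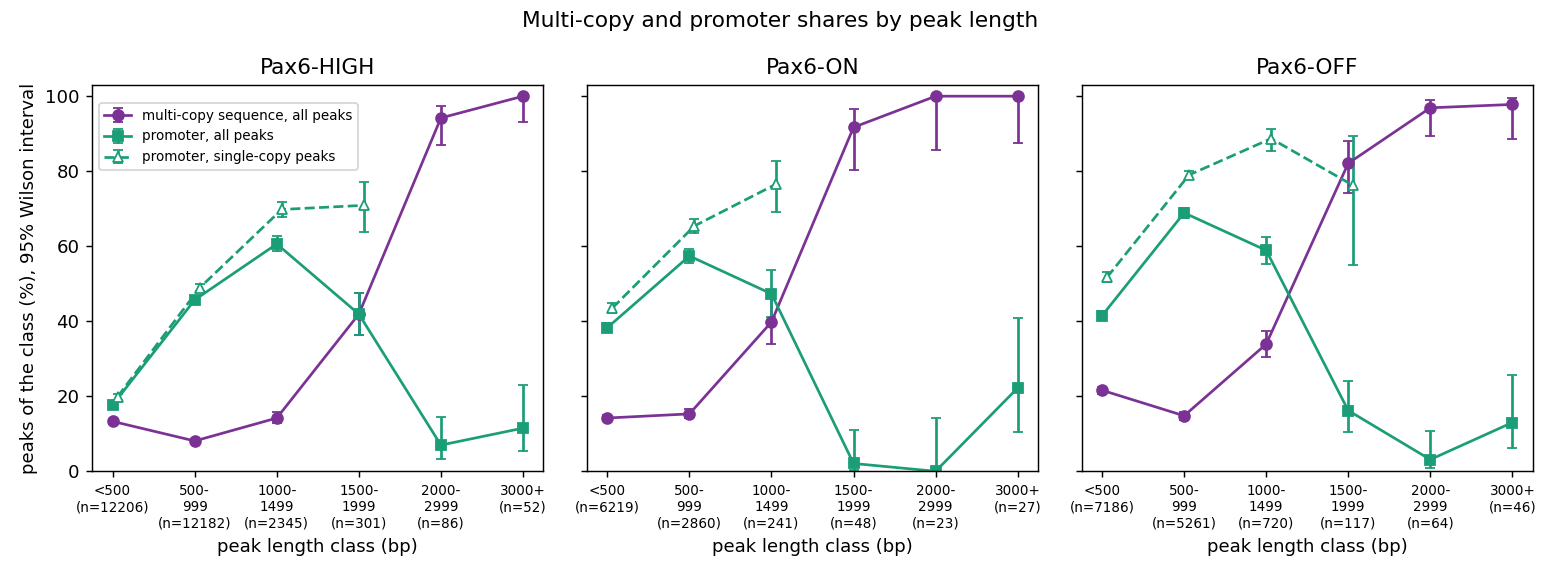
Share of peaks (%, vertical axis) that were multi-copy (circles) or at promoters (squares) in each length class (bp, horizontal axis) in the 3 cell lines, with 95% Wilson intervals; triangles give the promoter share among single-copy peaks where a class held at least 20 of them. Multi-copy shares climbed to between 94.2% and 100% at 2000 bp and above, while promoter shares of all peaks lay between 0 and 22.2% there.

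Few broad peaks lay at promoters. The share was 12 of 138 in Pax6-HIGH (8.70%, interval 5.04 to 14.6%), 6 of 50 in Pax6-ON (12%, interval 5.62 to 23.8%) and 8 of 110 in Pax6-OFF cells (7.27%, interval 3.73 to 13.7%). Among all peaks the shares were 34.2%, 44.0% and 52.7%, and among peaks from 1000 bp to under 2000 bp, called mid-length below, they were 58.5%, 39.8% and 52.9%. Among shorter multi-copy peaks they were 5.47%, 8.21% and 5.84%, so a low promoter share was not particular to broad peaks. The median distance from the summit to the nearest start site was 34898, 27794 and 32900 bp for broad peaks, and 14948, 6060 and 410 bp for shorter ones. For shorter multi-copy peaks it was 56562, 31338 and 46164 bp. Of the broad summits, 77 of 138, 25 of 50 and 62 of 110 were intergenic, and 53, 19 and 41 lay in introns.

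The promoters with a broad summit were mostly those of repetitive genes and of predicted gene models. Those of *Gm10718*, *Gm10716* and *Gm10722*, predicted coding genes, were broad in every line and lay inside the 234 bp arrays of chromosome 9. That of *Gm10222*, also a predicted gene, was broad in every line and lay in a stretch of chromosome 1 of which 49.1% of the words occur in the mitochondrial genome. *Flg*, which encodes the repeat-built skin protein filaggrin, held a broad summit within 1000 bp of its start in Pax6-HIGH and Pax6-ON cells. *Muc19*, a gel-forming mucin with repeats, and *Gm5152* did so in Pax6-HIGH and Pax6-OFF cells, and *Gm10800* in Pax6-HIGH and Pax6-ON cells. *Dux*, a repeated homeobox gene of early embryos, the histone gene *Hist2h2aa2*, *Refbp2* and *Nxph1* did so in Pax6-HIGH cells, and *Ahnak2* and *Etv1* in Pax6-OFF cells. In each of these 26 peaks the start site lay inside the peak. They reached a median of 2248, 3048 and 3010 bp upstream and of 2056, 3914 and 2970 bp downstream of it. Single-copy mid-length promoter peaks of Pax6-HIGH cells reached 514 bp upstream and 634 bp downstream.

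Of 200 annotated genes on 10 lists, which held regulators and products of beta cells, lens and kidney regulators, AP-1, chromatin, cell cycle, ribosomal protein, housekeeping and splicing genes, 0 had a broad summit within 1000 bp of a start site in any line. With only 12, 6 and 8 broad peaks at promoters in all, this count says nothing particular about these genes. Shorter peaks lay at many of them, in Pax6-HIGH cells at between 26.3% (kidney regulators) and 95.7% (splicing genes) of the genes of a list. At the marker genes of the labelled cell types they lay at the promoters of 12, 6 and 4 of 20 beta-cell regulators and 11, 3 and 0 of 20 beta-cell products. They lay at 8, 5 and 3 of 18 lens and eye regulators and at 5, 4 and 4 of 19 kidney regulators, so that the lens and kidney lists did not mark Pax6-ON and Pax6-OFF cells by promoter peaks, at the number of peaks called in each line. Lists not tied to these cell types also fell from Pax6-HIGH to Pax6-ON. Ribosomal protein genes stood at 75.0%, 16.7% and 50.0% and splicing genes at 95.7%, 30.4% and 100%. The fall was therefore not particular to the marker lists, and the share over all annotated genes is not given here. The nearest gene to a broad summit was a list gene in 3 cases. *Prox1*, a regulator of lens fibre cells, was nearest to broad peaks of 3552, 3348 and 3102 bp, which lay over 100 kb from its start. *Gadd45a*, a p53 target, was nearest to peaks of 2709, 2672 and 2716 bp, each over 10 kb from its start, and *Cdkn1a*, the p53 target that arrests the cell cycle, to a peak of 2425 bp in Pax6-HIGH cells, 8795 bp from its start. Within 2.5 Mb of *Pax6*, 0 of 45, 0 of 30 and 0 of 19 peaks were broad, where broad peaks made up 0.508%, 0.531% and 0.821% of all peaks, so that these counts do not set the locus apart. The longest there, in Pax6-HIGH cells, was 1685 bp long with its summit 8224 bp from a *Pax6* start site, and had no multi-copy words.

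Lengths ranged widely. The median length was 2523, 3232 and 2840 bp, and the longest peaks were 86639, 45075 and 85682 bp. Broad peaks covered 595, 304 and 495 kb, which was 3.54%, 6.52% and 6.56% of all bases in peaks. An array of genes for 5S ribosomal RNA, a small RNA of the large ribosomal subunit, lay on chromosome 8 and gave the longest peak of every line. Pax6-HIGH and Pax6-OFF cells had 1 peak across it, chr8:126061485-126148123 and chr8:126062106-126147787, and in Pax6-ON cells it was split in 3, of 45075, 7969 and 31810 bp. The 51 ribosomal RNA genes under the Pax6-HIGH peak were annotated on the minus strand, 1698 bp apart in the median. Summit pileup, the number of fragments at the highest point, was 125 in Pax6-HIGH, 112 in Pax6-OFF, and between 48 and 95 in Pax6-ON cells.

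Other long peaks lay over arrays in and between genes. An intergenic array nearest to *Apba2*, at chr7:71610670-71640437, gave peaks of 28704, 27339 and 16336 bp, with pileups of 100, 208 and 58. Peaks over *Flg2*, a filaggrin relative, were 15245, 4482 and 8873 bp long, and those over *Flg* were 11807, 7823 and 6899 bp long. Peaks over *Hrnr*, another gene of this family, were 7027, 1404 and 5442 bp long. These genes build the outer layer of the skin. Peaks over *Ahnak2*, where copies lay 519 bp apart, were 8085, 282 and 8283 bp long. The longest arrays of the 208 bp unit were of similar length in every line. Their peaks were 10027, 9552 and 9879 bp long at chr3:6297472-6307498, 6800, 6459 and 6791 bp at chr10:27538548-27545347, 5277, 5157 and 5091 bp at chr2:80652100-80657376, and 5152, 4808 and 5159 bp at chr2:21923650-21928831. The array of 212 bp units at chr8:53389044-53393918 had peaks of 4875, 4290 and 4749 bp. The array of 54 bp units in an intron of *Stam2*, at chr2:52552169-52557908, had peaks of 5740, 5232 and 5473 bp. At chr6:65247677-65256167 the lengths were 8491, 3454 and 7325 bp, and in an intron of *Cyp2c29*, a cytochrome P450 gene, they were 5241, 5443 and 6804 bp.

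**Figure D2:**
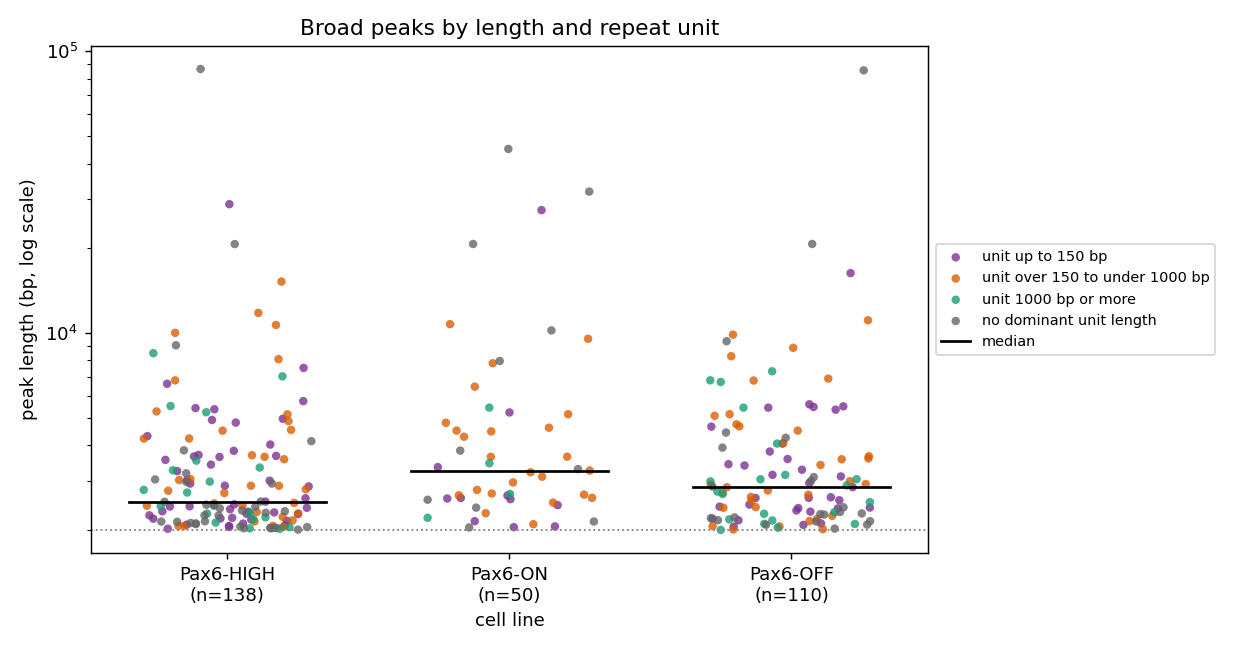
Length of every broad peak (bp, log scale) in each line, coloured by the dominant unit length of its site; black lines mark medians of 2523, 3232 and 2840 bp and the dotted line the limit of 2000 bp. Sites whose words recur at no single dominant distance, among them the 5S array, are grey.

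Overlapping broad peaks of the 3 lines were merged into 158 sites, which fell into classes by the commonest distance between successive copies of a word of 15 bases. Units of up to 150 bp were found at 55 sites, units of over 150 and under 1000 bp at 37, units of 1000 bp or more at 27, and no distance held at least 20% of the words at 39. The sites with short units were poor in CpG, with a median ratio of observed to expected CpG of 0.0197, whereas those with units of the next class had a median of 0.607. Short arrays lay in introns at 34 of 55 sites. By shared words, 61 of the 158 sites fell into 8 families, in which linked sites shared at least 20% of the words of the smaller site. The largest had 22 sites on 13 chromosomes, and at 20 of them the commonest distance was exactly 208 bp. The median word of these sites occurred 3358 times in mm9, the CpG ratio was 0.612 and units at that distance were identical at 97.6% of bases, in the median.

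The families differed in CpG content and in how often they were broad. Sites of the 208 bp family were broad in every line at 15 of 22, with median pileups of 129, 107 and 124. The 8 sites of the 212 bp family, with a CpG ratio of 0.564, had a peak in all lines but were broad in all at 1. A family of 11 sites with distances of 1477 to 1498 bp had a CpG ratio of 0.0955, and another 11 sites, whose median word occurred 12522 times, had a ratio of 0.162. Broad peaks of these CpG-poor families were lower, with median pileups of 62.5 and 53 in Pax6-HIGH cells. Names of repeat families are not given, because no repeat annotation was used here.

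**Figure D3:**
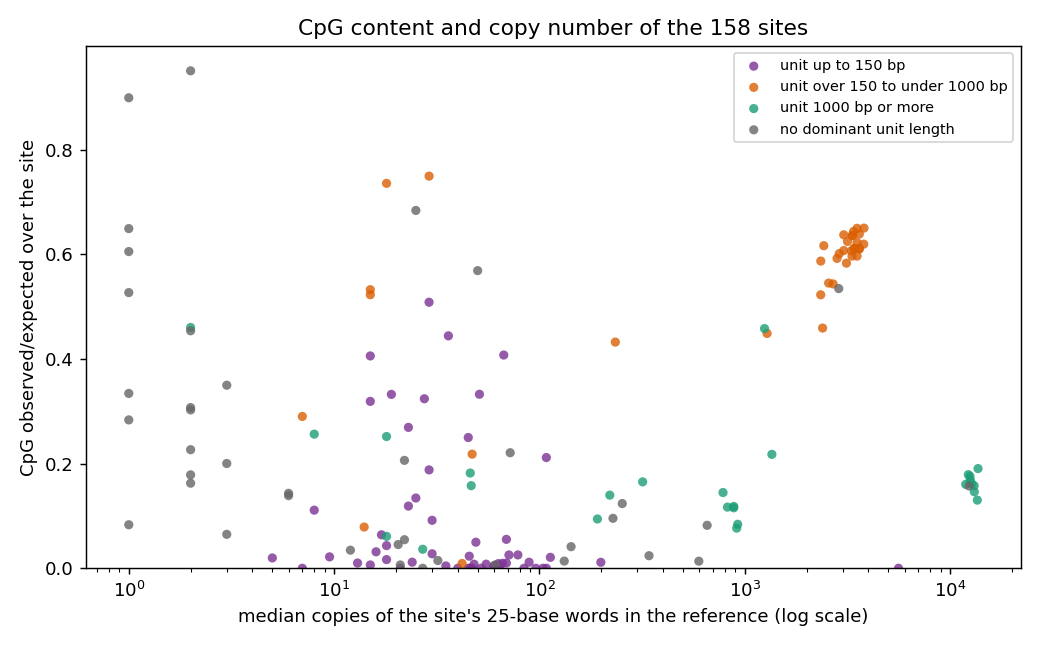
Ratio of observed to expected CpG over each of the 158 sites (vertical axis) against the median number of copies in mm9 of the site's words of 25 bases (horizontal axis, log scale), coloured by dominant unit length. The 208 bp family, with a median of 3358 copies, has ratios from 0.432 to 0.650, and the family with a median of 12522 copies has ratios from 0.130 to 0.206.

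With all called peaks counted, broad peaks overlapped peaks of the other lines more often than all peaks did, though not in every case more often than long or high peaks. In Pax6-HIGH cells, 97 of 138 broad peaks (70.3%, interval 62.2 to 77.3%) overlapped a Pax6-ON peak by at least 1 bp and 120 (87.0%, interval 80.3 to 91.6%) a Pax6-OFF peak, against 19.5% and 32.6% of all peaks. In Pax6-ON cells, 50 of 50 overlapped a Pax6-HIGH peak and 49 (98.0%) a Pax6-OFF peak, against 56.8% and 56.2% of all peaks. In Pax6-OFF cells, 102 of 110 (92.7%) overlapped a Pax6-HIGH peak and 86 (78.2%) a Pax6-ON peak, against 66.6% and 39.4%. Longer intervals meet other peaks more easily, and 60.9% and 84.8% of the broad summits of Pax6-HIGH cells lay inside a peak of Pax6-ON and Pax6-OFF cells, against 18.4% and 30.8% of shorter ones. Mid-length peaks came close to broad peaks in some pairs. In Pax6-OFF cells 90.1% of them overlapped a Pax6-HIGH peak and 63.6% a Pax6-ON peak, in Pax6-ON cells 86.5% a Pax6-HIGH peak and 84.1% a Pax6-OFF peak, and in Pax6-HIGH cells 43.4% a Pax6-ON peak and 62.9% a Pax6-OFF peak. Shorter Pax6-OFF peaks with at least the median pileup of the broad peaks overlapped Pax6-ON peaks at 78.5%. The lines also differ in the number of peaks called, which limits the shares. With 9418 peaks in each line, 63.9% of broad Pax6-OFF peaks overlapped a Pax6-HIGH peak. The other pairs lay between 76.4% and 96.0%. The shares of all peaks at this setting are not given here, so the difference from all peaks is not shown for equal numbers of peaks.

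How often the overlapping peak was itself broad depended on the line. Of the partners of broad Pax6-ON peaks, 49 of 50 in Pax6-HIGH and 47 of 49 in Pax6-OFF were broad. Between the other lines, 87 of the 120 Pax6-OFF partners of broad Pax6-HIGH peaks and 89 of the 102 Pax6-HIGH partners of broad Pax6-OFF peaks were broad. In Pax6-ON, 45 of the 97 partners of broad Pax6-HIGH peaks (46.4%) and 45 of the 86 partners of broad Pax6-OFF peaks (52.3%) were broad. Of the 27034 shorter Pax6-HIGH peaks, 3 met a broad Pax6-ON peak as their longest overlap. With only 50 broad Pax6-ON peaks, 49 of them with a broad partner, this count had to be small. Across broad peaks and their partners, Spearman's rho between the lengths ran over the 6 directed pairs of lines from 0.58, for the 97 Pax6-HIGH peaks against Pax6-ON, to 0.82, for the 49 Pax6-ON peaks against Pax6-OFF, as a description across peaks that share the same underlying sequence. Of the 158 sites, 42 were broad in every line, 45 in Pax6-HIGH and Pax6-OFF, 3 in Pax6-HIGH and Pax6-ON, 48 in Pax6-HIGH alone, 20 in Pax6-OFF alone and 0 in Pax6-ON alone. A peak of any length was present in every line at 100 sites (63.3%).

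**Figure D4:**
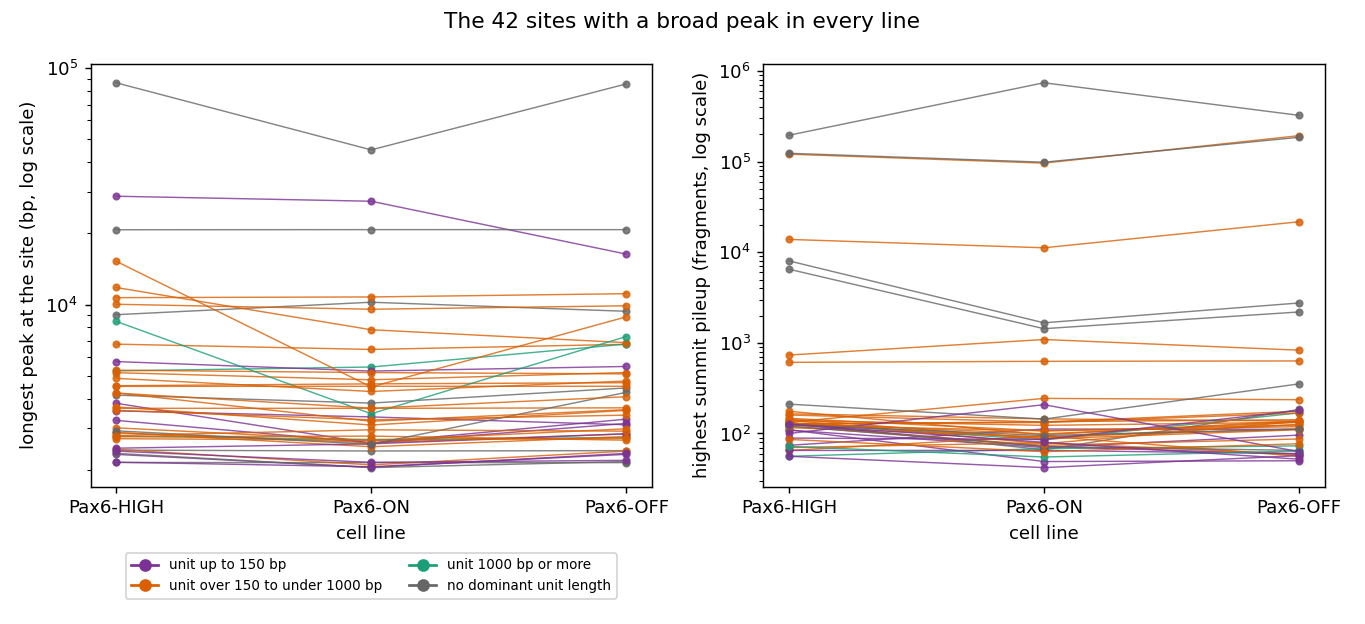
Longest peak (bp, left) and highest summit pileup (fragments, right, both on log scales) in each line at the 42 sites that were broad in every line, 1 line per site, coloured by dominant unit length. Median lengths were 3757, 3302 and 3626 bp, and pileups are not scaled for depth.

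Sites with peaks in 1 line were few and again mostly short arrays. Pax6-HIGH cells had 14, and the 8 longest were 7530 bp near *9230019H11Rik*, 4969 bp in *Ccdc91*, 4921 bp in *Atp6v1h*, 3697 bp near *Stk38l*, 2595 bp in *Nsmce2*, 2521 bp in *Rassf8*, 2425 bp near *Cdkn1a* and 2311 bp near *Gpatch2*. Those near *9230019H11Rik* and in *Atp6v1h* reached pileups of 871 and 573, against a median of 83.5 over the broad peaks of this line, and the others lay between 51 and 164. Those of *Ccdc91*, *Stk38l* and *Rassf8* lie close together on chromosome 6, which held 13.0% of the broad and 15.3% of the shorter Pax6-HIGH peaks. In Pax6-ON and Pax6-OFF cells this chromosome held 4.00% and 5.45% of the broad and 6.92% and 5.03% of the shorter peaks. Why its share was larger in Pax6-HIGH cells was not tested. Of such sites in Pax6-OFF cells, 4 are described here, of 2881 and 2219 bp over annotated *SNORD115* copies on chromosome 7, 2553 bp in *Orc5* and 2388 bp in *Psmb1*. SNORD115 is a repeated small nucleolar RNA of an imprinted region. Whether the genome of 1 line carries more copies of an array than the reference was not tested.

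Summit pileup was moderately higher in broad peaks. For broad peaks the median was 83.5 fragments (quartiles 58.2 and 128), 90.5 (70.5 and 142) and 78.0 (56.0 and 123). For shorter peaks it was 54.0 (39.0 and 86.0), 61.0 (47.0 and 84.0) and 50.0 (39.0 and 70.0). Single-copy mid-length peaks had medians of 102, 93.0 and 77.0, so that broad peaks were not higher than these in Pax6-HIGH and Pax6-ON cells and about level with them in Pax6-OFF cells. Fold enrichment, the pileup divided by the background that MACS2 estimated around the peak, had medians of 5.28, 5.86 and 5.57 in broad and 3.79, 3.89 and 3.88 in shorter peaks. In single-copy mid-length peaks its medians were 4.87, 5.36 and 4.83, below those of broad peaks in every line. Across all peaks, Spearman's rho of length with pileup was 0.65, 0.51 and 0.55, and within the broad peaks it was 0.25, 0.25 and 0.15, as a description.

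**Figure D5:**
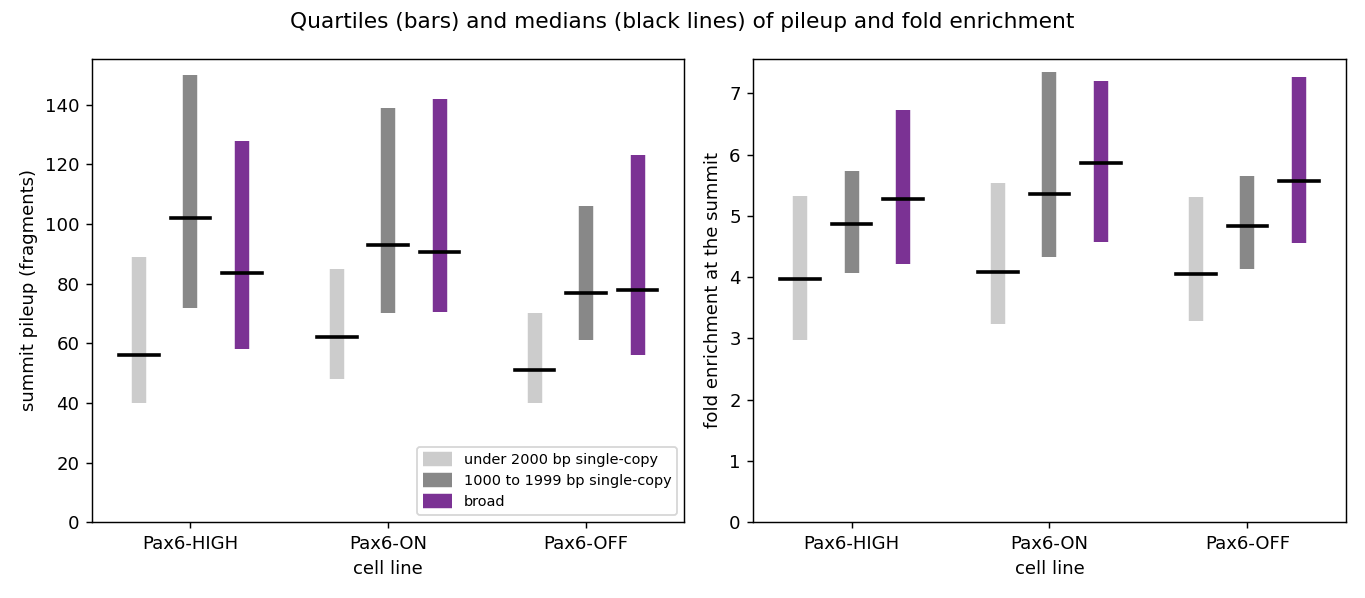
Quartiles (bars) and medians (black lines) of summit pileup (fragments, left) and fold enrichment (right) for single-copy peaks under 2000 bp, single-copy mid-length peaks (1000 bp to under 2000 bp) and broad peaks in each line. Broad medians of pileup were 83.5, 90.5 and 78.0 and those of fold enrichment 5.28, 5.86 and 5.57.

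A few broad peaks had extreme pileups. At the 3 chromosome 9 arrays, pileups ran from 13880 to 123945, from 11215 to 98752 and from 21734 to 193899. At the *Gm10800* site on chromosome 2 the highest pileups were 484121, 395850 and 757219, the last in a Pax6-OFF peak of 1954 bp, just under the limit. At the *Gm10222* site they were 195816, 743921 and 324876, but the fold enrichment there was 1.83, 2.08 and 2.2, where the local background was high as well. Broad peaks near *Zfp825* and *Smok4a* had pileups of 6511 and 8049 in Pax6-HIGH cells, 1435 and 1666 in Pax6-ON cells and 2195 and 2758 in Pax6-OFF cells.

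Of the 298 broad peaks, 8 were single-copy, 5 from the Pax6-HIGH and 3 from the Pax6-OFF line. Single-copy here means only that the peak was not multi-copy in the reference. Whether these sequences have more copies in the genomes of the cells was not tested. *Nxph1*, which encodes neurexophilin 1, a secreted ligand of neurexins, had a peak of 2113 bp in Pax6-HIGH cells (chr6:8898149-8900261), with its summit 19 bp from the start site, a pileup of 212 and a fold enrichment of 2.88, and no peak in the other lines. *Etv1*, an ETS transcription factor, had a peak of 2025 bp in Pax6-OFF cells (chr12:39505039-39507063) with a pileup of 104, a peak of 1260 bp in Pax6-HIGH cells and peaks of 399 and 218 bp in Pax6-ON cells. *Refbp2* had a peak of 2257 bp in Pax6-HIGH cells (chr1:173431619-173433875) and peaks of 1036 and 1022 bp in Pax6-ON and Pax6-OFF cells. The remaining 5 were distal. The peak at chr17:39980032-39982121 in Pax6-OFF cells had a pileup of 2869 and a fold enrichment of 1.48, with peaks of 1454 and 1755 bp in Pax6-HIGH and Pax6-ON cells. The peak at chr7:12595756-12600009 was 4254 bp long with 49.0% of its words multi-copy, just under the limit for that class.

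The limit of 2000 bp cut through a continuous range of lengths. The shortest broad peaks were 2008, 2022 and 2023 bp in Pax6-HIGH, nearest to *Mib1*, *Slc15a5* and *Ppa2*, 2044, 2049 and 2061 bp in Pax6-ON, nearest to *Actr3b*, *Gm17590* and *Mgmt*, and 2004, 2010 and 2015 bp in Pax6-OFF cells, nearest to *Tbx18*, *Sval2* and *C130026I21Rik*. The longest peaks left out were 1997, 1996 and 1996 bp in Pax6-HIGH (*Epc2*, *Kcnh1* and *Vmn1r2*), 1971, 1952 and 1917 bp in Pax6-ON (*Akap9*, *Flg* and *Speer4c*) and 1980, 1975 and 1973 bp in Pax6-OFF cells (*Aig1*, *Ptprt* and *Atp2b1*). Just outside the limit in Pax6-HIGH cells, the *Epc2* promoter peak was single-copy, as were promoter peaks of 1971 bp at *Fmn2*, 1956 bp at *Slc6a15* and 1949 bp at *Rtn4*.

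The sequence at broad summits differed from that at shorter peaks, but for CpG not in the same direction in every line. Within 250 bp of the summit, the median ratio of observed to expected CpG was 0.173, 0.511 and 0.164 for broad peaks, and 0.340, 0.471 and 0.652 for shorter ones. Within 100 bp the order in Pax6-ON cells was reversed, at 0.395 for broad and 0.491 for shorter peaks. Among non-promoter peaks the ratio was 0.135, 0.326 and 0.139 for broad and 0.221, 0.200 and 0.227 for shorter ones. Within 250 bp of the summit, shorter multi-copy peaks had medians of 0.229, 0.173 and 0.187. Of 12 short motifs counted on both strands within 100 bp of the summit, 8 had a lower share in broad windows than in the windows of all peaks in every line, 1 a higher share in every line and 3 a higher share in some. Not all of the 8 were clear of counting error. The RFX motif GTTGCCATG and the NRF1 motif GCGCATGC were in 0 broad windows of any line. Their shares of all windows, 0.754%, 0.414% and 0.396% and 1.90%, 2.40% and 3.18%, lay below the Wilson upper limits for 0 given next. In Pax6-OFF cells the E-box CAGATG was in 8.18% of broad windows (interval 4.36 to 14.8%) and 9.55% of all. TGANTCA, the AP-1 motif, was in 0 of 138, 0 of 50 and 0 of 110 broad windows, where 3 counts would be shares of 2.17%, 6.0% and 2.73% and the Wilson upper limits are 2.71%, 7.13% and 3.37%, and in 9.65%, 25% and 12.3% of the windows of all peaks. GGGCGG, bound by SP and KLF factors, was in 8.70%, 6.0% and 6.36% of broad windows and in 29.2%, 35.2% and 43.8% of all. CCAAT, bound by NF-Y, was in 29.7%, 36.0% and 30.0% of broad and in 27.2%, 31.7% and 29.7% of all windows. The intervals of the broad shares held the share of all windows in every line. AAGATGGCG, a YY1 motif, was in 5.07%, 0 and 4.55% of broad and in 2.50%, 1.66% and 3.67% of all windows. Windows in arrays of 1 family repeat the same letters, so these shares rest on fewer sequences than peaks, and a match is not evidence of binding.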

How the data were processed

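The members and the gene lists were chosen with earlier results of these data known. Per the labels, the authors trimmed reads with Trim Galore 0.4.1, aligned them to mm9 with Bowtie2 2.2.6, handled them with SAMtools 1.6 and bedtools, and called peaks with MACS2 2.1.1. Per the file headers, the call took paired fragments, kept all duplicates, used a q-value limit of 0.05 and a background window of 6250 bp, and had no control. Both replicates of a line were pooled in 1 table. A filter on mapping quality is not given in the sources used here. The pileup is deposited as a signal that counts fragments over the highest base and was left unscaled by the authors. The fold enrichment column is the authors' ratio of that pileup to an estimated background. The deposited −log10 q-value served only in alternatives. Depth was 100254099 fragments for Pax6-HIGH, 102223606 for Pax6-OFF and 130955836 for Pax6-ON.

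Peaks on chromosomes 1 to 19 were read with pandas 2.3.3, and start sites and exons from GENCODE M1 on NCBIM37, the same assembly as mm9, with pysam 0.24.0. Words of 25 bases were counted over the whole reference. A peak was called mitochondrial when at least 50% of its words occurred in the mitochondrial genome. Intervals are 95% Wilson intervals (SciPy 1.17.1). Of 209 list genes, 200 were annotated on these chromosomes. All 26 checks on simulated sequence and peaks with known answers were passed.

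Named were the 10 longest broad peaks of each line, the 15 sites broad in every line with the largest summed length, up to 8 peaks of each line without a peak elsewhere, list genes with a broad promoter summit, and the 3 peaks on either side of 2000 bp. Promoter genes outside the lists, single-copy peaks, sites of extreme pileup and the repeat units were chosen after their values were seen. The reference has 0 soft-masked bases, so the planned removal of soft-masked repeats was not run, and removal of multi-copy sequence was added after seeing the data. Peaks outside chromosomes 1 to 19 entered no comparison, and 1 site with a peak in Pax6-OFF cells alone is not reported here.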

Additional observations from a re-analysis of the deposited data

Results flagged for a closer look

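Peaks of 2000 bp or more were also called outside chromosomes 1 to 19, where no comparison was made, and these are given because their number exceeded the 3 that a count of 0 allows. In the order Pax6-HIGH, Pax6-ON, Pax6-OFF there were 20, 15 and 13. Chromosome X held 15, 10 and 8 of them, the longest being 32252, 13444 and 14595 bp. The mitochondrial genome was covered by 1 peak in each line, of 16288, 16261 and 16299 bp, with summit pileups of 408462, 1170894 and 544903 fragments. The remaining 4 in each line lay on unplaced sequence and chromosome Y held 0.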

How the results depend on the processing

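No paired analysis was possible because the replicates of each line were pooled before deposit, and for the same reason no replicate was left out. Of 167 alternatives to the main values for broad peaks, 120 stayed within the interval of the main value (for counts, within 1.5 times) and 47 moved. With the alternatives for the values of shorter peaks included, 123 of 200 stayed and 77 moved. All values below are in the order Pax6-HIGH, Pax6-ON and Pax6-OFF unless a line is named. Broad peaks numbered 439, 98 and 227 with a limit of 1500 bp, 52, 27 and 46 with 3000 bp, and 5, 0 and 3 without multi-copy sequence. The multi-copy share of broad peaks was 84.8%, 88.0% and 88.2% with 10 copies or more, 59.0% (Pax6-HIGH) and 89.4% (Pax6-OFF) with 1500 bp, 100% (Pax6-HIGH) with 3000 bp, and 91.3% (Pax6-HIGH) with a copy outside the peak. The promoter share was 31.4% in Pax6-HIGH with 1500 bp, 3.62% in Pax6-HIGH and 2.73% in Pax6-OFF with summits within 500 bp, and 40.0% and 33.3% in these lines for the 5 and 3 peaks without multi-copy sequence. Overlap of Pax6-HIGH broad peaks with Pax6-ON was 57.2% with 1500 bp, 60.0% without multi-copy sequence, 60.9% for summits and 45.7% for overlap of 50% of both peaks. Overlap of Pax6-HIGH with Pax6-OFF was 78.6%, 40.0% and 76.1% under the first, second and last of these. Overlap of Pax6-ON with Pax6-HIGH was 82.0% for 50% of both peaks and 84.0% with 9418 peaks in each line, and with Pax6-OFF it was 86.0% for 50% and 100% with 3000 bp. Overlap of Pax6-OFF with Pax6-HIGH was 100% without multi-copy sequence and 63.9% with 9418 peaks in each line, and with Pax6-ON it was 100% without multi-copy sequence, 67.3% for summits and 57.3% for 50%. The median pileup of broad over shorter peaks (1.55, 1.48 and 1.56) was 1.93 with 3000 bp and 2.41 without multi-copy sequence in Pax6-HIGH, 1.21 for the 200 longest peaks in Pax6-ON and 6.92 without multi-copy sequence in Pax6-OFF. At promoters alone it was 7.17, 1526 and 200, where the chromosome 9 arrays weigh heavily among 12, 6 and 8 peaks. The CpG ratio at promoter summits was 0.593, 0.684 and 0.657 in broad and 0.806, 0.811 and 0.833 in shorter peaks. The causes of these shifts were not tested. The position and pileup of a multi-copy peak also depend on where the aligner placed its reads.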
